A study of Mus musculus with 14 samples.

Results

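Transcript levels of 10 genes of the immune checkpoint system were followed in mouse CD4 T cell libraries from a study of TRAIL, a ligand (gene Tnfsf10) that can trigger cell death through its receptor. They were 7 inhibitory receptors (Lag3, Pdcd1, Ctla4, Havcr2, Tigit, Cd160 and Btla) and 3 ligands (Cd200, Cd274 and Pdcd1lg2). The genes were taken by symbol. All 10 were found among the 20875 genes of the culture table and among the 18855 genes of the mouse table, and all 10 passed the filter on low values (a mean of at least 1 TPM) in both. TPM is a gene's share of 1000000 transcripts, a level that is corrected for gene length.

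Inhibitory receptors are placed on the T cell surface during activation and limit it. CTLA-4 competes with the activating receptor CD28 for CD80 and CD86 on antigen-presenting cells. PD-1, encoded by Pdcd1, recruits phosphatases to the receptor complex when it binds PD-L1 (Cd274) or PD-L2 (Pdcd1lg2). LAG-3 is a relative of CD4 that binds MHC class II, TIGIT competes with CD226 for the poliovirus receptor, and BTLA and CD160 share the ligand HVEM (Tnfrsf14). TIM-3 is encoded by Havcr2, and CD200 restrains myeloid cells through its receptor on them. In lymph node and spleen, PD-L1 is also carried by B cells, dendritic cells and macrophages, and BTLA by B cells as well as T cells.

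In the culture experiment, CD4 T cells labelled as lymph node cells of wild type C57BL/6 mice were kept in medium (n = 2), with antibodies to CD3 and CD28 (n = 3) or with both antibodies plus TRAIL (n = 3). The labels give 1 mg/ml for the antibodies and 10 ug/ml for TRAIL. In the mouse experiment, CD4 T cells labelled as spleen came from C57BL/6 TRAIL-R f/f mice given vehicle (n = 1), TRAIL-R f/f mice given TRAIL (n = 3) and Lck Cre TRAIL-R f/f mice given TRAIL (n = 2). An f/f mouse carries a TRAIL receptor gene flanked by loxP sites, which Cre under the T lineage promoter Lck is meant to delete. All 3 mouse groups carry the floxed allele by their titles, but the bracketed name of the vehicle library is B6_spleen. The bracketed name of the first Lck-Cre library carries no TRAIL tag. The series title names experimental autoimmune encephalomyelitis, and no label used here gives the age, the immunisation or the dose of TRAIL in the mice. Nothing says that replicates were separate cultures or animals, so p-values measure only the spread between these libraries.

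The libraries held 19199048 to 56874313 reads, recovered from TPM and gene length. No member was at 0 in any library, and the member with the fewest reads had 57, which sets the precision for Cd160 in culture and Pdcd1lg2 in mice. The defining T cell markers were present in every library, and so were markers of other cells. In the mouse table no gene at all was at 0 in any library. Presence there thus says nothing particular about members or markers. In culture the 10 B cell markers summed to 1577 to 1617 TPM in medium, 262 to 317 TPM in stimulated and 1366 to 1393 TPM in stimulated TRAIL libraries, against 3421 to 4061 TPM for the 10 CD4 T cell markers. The 12 macrophage and monocyte markers summed to 1251 to 1346, 39.3 to 44.7 and 403 to 490 TPM in the same order, and Retnlg of the neutrophil list was at 0 in all 3 stimulated libraries. All 10 B cell, 12 macrophage and 10 neutrophil markers fell with stimulation and were higher with TRAIL than without it. In mice the 10 neutrophil markers summed to 73306 to 97048 TPM on sequencing lane 2 and 17749 to 26780 TPM on lane 4, above the 567 to 2189 TPM of the CD4 T cell markers. Stimulated replicate 1 stood apart from the other stimulated libraries, with root mean square log2 differences of 0.434 and 0.416 from them against 0.220 between those. Tnfrsf10b, the gene of the mouse TRAIL receptor, was at 1.82 TPM in the vehicle library, at 1.64, 1.46 and 2.31 TPM in the f/f TRAIL libraries and at 2.04 and 3.50 TPM in the libraries labelled Lck-Cre. The level was thus not lower under the label of deletion, and the deleted part of the gene is not given in the sources used here. The plot of cell type markers shows these sums by library. In such bulk libraries, fewer cells of a type and less RNA per cell cannot be told apart.

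**Figure D1:**
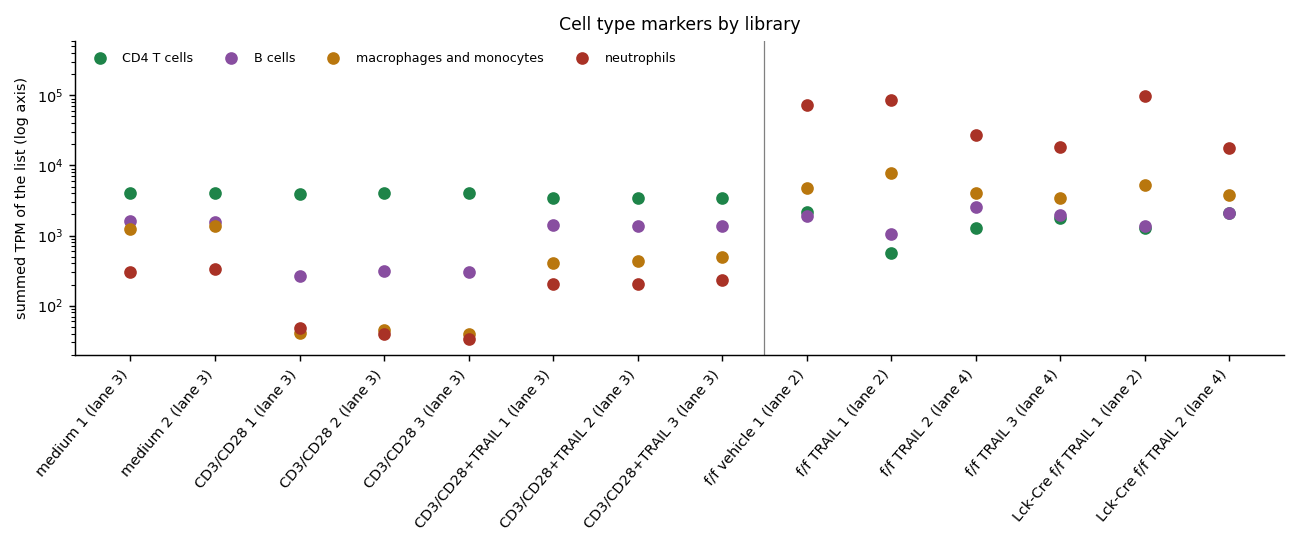
Summed TPM (log axis) of 4 marker lists in each of the 14 libraries, with the sequencing lane in brackets, where each point is 1 list in 1 library. B cell, macrophage and neutrophil sums were lowest in the 3 stimulated libraries, and neutrophil sums in mice were 73306 to 97048 TPM on lane 2 and 17749 to 26780 TPM on lane 4.

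Positions are on GRCm38 from the GENCODE M21 annotation. Several of the genes lie beside functional relatives. Cd274 (chr19:29367455-29388095, plus strand) is followed by Pdcd1lg2 (chr19:29410919-29471161, plus strand) after 22823 bases. Ctla4 (chr1:60887000-60915832, plus strand) lies between Cd28 and Icos. Btla (chr16:45224315-45257670, plus strand) and Cd200 (chr16:45382135-45409053, minus strand) are neighbours 124464 bases apart. Lag3 (chr6:124904361-124911705, minus strand) lies next to Cd4, with a gap of 16139 bases. The other members are Pdcd1 (chr1:94038305-94052553, minus strand), Tigit (chr16:43648867-43664146, minus strand), Cd160 (chr3:96798763-96829351, minus strand) and Havcr2 (chr11:46454935-46481255, plus strand).

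RefSeq promoter windows on GRCm38.p6 were matched for 9 of the 10 members, and the 250 bases before the start site are shown for 5 of them. Cd274 and Pdcd1lg2 are shown as neighbours that moved in opposite directions with TRAIL, Ctla4 and Tigit as receptors that moved together, and Pdcd1 as the receptor that moved against them. The windows are chr19:29367188-29367437 and chr19:29410669-29410918 on the plus strand, chr1:60908775-60909024 on the plus strand, and chr16:43664185-43664434 and chr1:94052554-94052803 on the minus strand. Each is written 5′ to 3′ along the gene's strand, and capitals mark GGAAA, the core recognised by NFAT factors, on either strand (TTTCC when on the other strand).
Cd274: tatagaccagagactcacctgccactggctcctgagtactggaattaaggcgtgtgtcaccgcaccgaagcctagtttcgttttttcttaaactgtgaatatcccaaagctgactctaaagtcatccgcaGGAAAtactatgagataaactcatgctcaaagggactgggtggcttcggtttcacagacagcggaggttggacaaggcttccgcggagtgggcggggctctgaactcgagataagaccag
Pdcd1lg2: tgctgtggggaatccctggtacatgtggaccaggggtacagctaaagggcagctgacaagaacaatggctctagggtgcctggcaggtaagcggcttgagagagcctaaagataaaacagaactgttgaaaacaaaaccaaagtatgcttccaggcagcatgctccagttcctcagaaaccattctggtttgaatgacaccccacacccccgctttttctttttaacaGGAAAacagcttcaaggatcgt
Ctla4: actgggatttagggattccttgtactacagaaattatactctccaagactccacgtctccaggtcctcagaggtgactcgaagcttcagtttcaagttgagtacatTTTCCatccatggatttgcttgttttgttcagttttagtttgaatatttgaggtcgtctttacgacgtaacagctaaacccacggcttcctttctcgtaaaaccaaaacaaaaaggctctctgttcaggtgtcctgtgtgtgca
Tigit: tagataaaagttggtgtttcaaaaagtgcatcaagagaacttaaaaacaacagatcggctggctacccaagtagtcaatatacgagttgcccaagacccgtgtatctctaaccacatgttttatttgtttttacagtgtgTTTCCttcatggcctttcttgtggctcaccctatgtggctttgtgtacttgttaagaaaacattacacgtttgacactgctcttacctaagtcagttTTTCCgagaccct
Pdcd1: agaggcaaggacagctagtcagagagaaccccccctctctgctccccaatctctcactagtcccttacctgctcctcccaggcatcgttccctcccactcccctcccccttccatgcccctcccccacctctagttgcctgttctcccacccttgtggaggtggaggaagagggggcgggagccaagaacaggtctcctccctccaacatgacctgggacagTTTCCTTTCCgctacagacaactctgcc
All 5 windows held the NFAT core, Tigit and Pdcd1 at 2 places each, and in Pdcd1 the copies stood side by side. The core was present in 6 of the 10 windows of the members (Cd160 has 2 windows) and in 55.6% of all 32851 windows of this length, so its presence is common. TGANTCA, the AP-1 site, was in the Havcr2 window and in 6.75% of all windows. Both motifs were searched on both strands.

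The first question in culture was what stimulation through CD3 and CD28 did to the checkpoint genes. Lag3 rose 55.2-fold, and Cd200, Tigit, Pdcd1lg2 and Ctla4 rose 2.67-fold to 3.90-fold in mean TPM. Cd160 and Havcr2 rose from low levels. Pdcd1 fell by 0.99 on the log2 scale and Btla by 0.35, and Cd274 did not pass the test. In all, 7 members rose and 2 fell at an adjusted p under 0.05, beside 76.5% of the 14035 tested genes called in either direction (27.5% higher and 49.0% lower). With median-of-ratios scaling 5574 of 10603 called genes were higher, against 3857 of 10741 here. Tests are limma on log2(TPM + 1) with Benjamini-Hochberg adjustment over all tested genes, and each log2 difference is on that scale, which understates the change of low genes.

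The second question was what TRAIL changed in stimulated cells. Lag3, Cd200, Tigit, Ctla4 and Pdcd1lg2, which are the 5 members with the largest rises under stimulation, were lower with TRAIL. Pdcd1 and Cd274 were higher with TRAIL, and Havcr2, Cd160 and Btla did not pass the test. These 2 rises and 5 falls stand beside 76.7% of all tested genes called in this comparison (48.1% higher and 28.6% lower). With median-of-ratios scaling 5201 of 10804 called genes were higher, against 6746 of 10765. Both comparisons use the same 3 stimulated libraries. A count of called members close to the share of all genes called says nothing particular about the members, so the values of each gene carry the description.

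**Figure D2:**
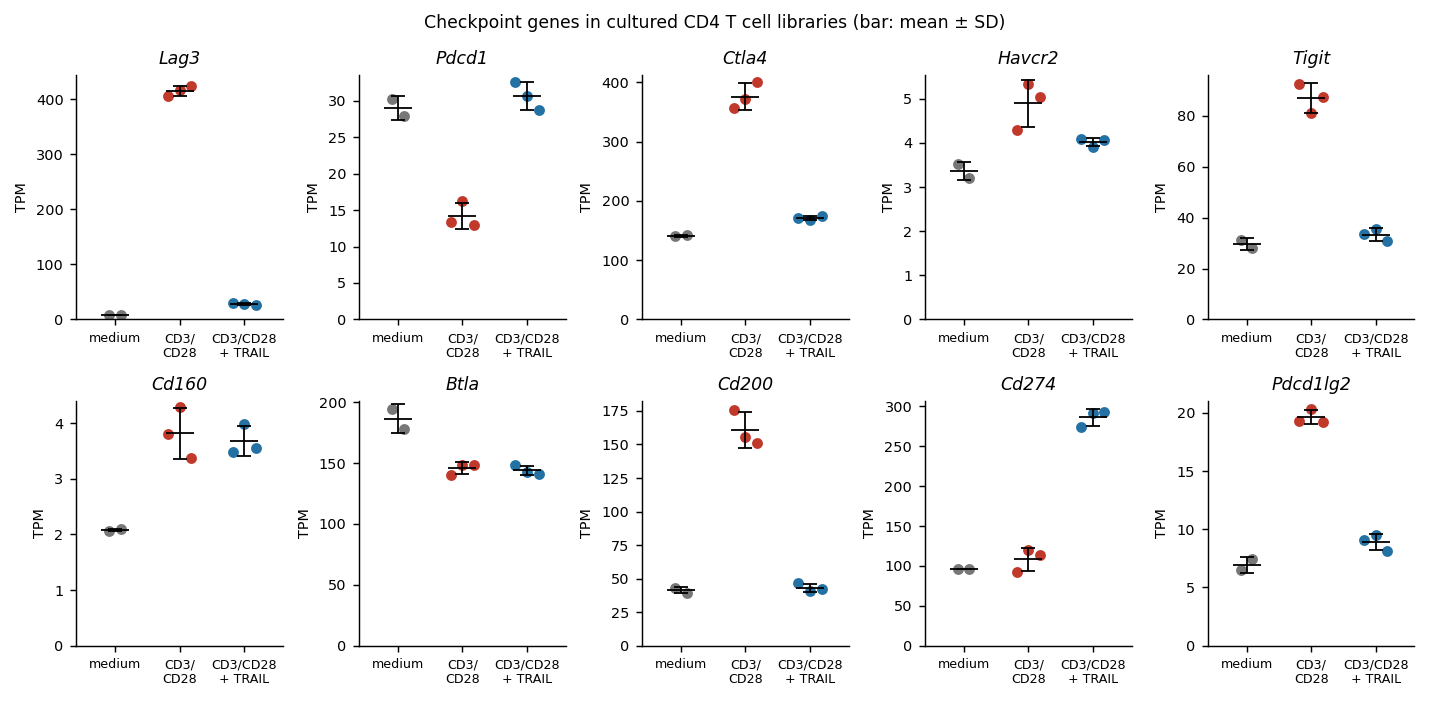
TPM of each of the 10 genes in the 8 culture libraries (points), by group, with the mean and SD as bars, on axes that start at 0. Lag3, Ctla4, Tigit, Cd200 and Pdcd1lg2 are highest in the 3 stimulated libraries, Pdcd1 is lowest there, and Cd274 is highest in the 3 libraries with TRAIL.

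Lag3, the MHC class II receptor, had the widest range of the members. It was at 7.37 and 7.68 TPM in medium, at 406, 416 and 424 TPM in stimulated libraries and at 30.4, 27.7 and 25.3 TPM with TRAIL. The 3 groups did not overlap, and the TRAIL libraries lay between the other groups. The log2 difference was 5.61 ± 0.082 (SE) for stimulated against medium (adjusted p = 1.29e-08) and -3.86 ± 0.074 for TRAIL against stimulated (adjusted p = 2.33e-08). Lag3 made up 1.80% and 1.98% of the summed TPM of the 7 receptors in medium, 39.2% to 39.9% in stimulated and 6.21% to 7.19% in TRAIL libraries. Per 100 TPM of the CD3 genes Cd3d, Cd3e and Cd3g, which mark T cells, Lag3 was at 0.619 to 0.654 in medium, 45.7 to 52.0 in stimulated and 2.49 to 3.02 in TRAIL libraries. The order of the groups was therefore the same on the scale of the CD3 genes.

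Ctla4, the competitor of CD28, was high already in medium, at 140.1 and 142 TPM. It reached 356, 371 and 400.1 TPM in stimulated libraries and stood at 170.2, 167 and 174 TPM with TRAIL. The groups did not overlap, and each TRAIL library was nearer to medium than to the stimulated libraries. The log2 difference was 1.41 ± 0.064 with stimulation (adjusted p = 4.47e-07) and -1.14 ± 0.058 with TRAIL (adjusted p = 7.85e-07). Of its neighbours, the activating receptor gene Cd28 rose by 0.26 ± 0.090 with stimulation (adjusted p = 0.0301) and was lower with TRAIL (-0.93 ± 0.081, adjusted p = 1.56e-05). The costimulatory receptor gene Icos rose by 1.24 ± 0.060 (adjusted p = 6.25e-07) and was lower with TRAIL (-1.09 ± 0.054, adjusted p = 6.68e-07).

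Tigit, which competes with CD226 for the poliovirus receptor, was at 31.4 and 27.97 TPM in medium, 92.7, 81.0 and 87.6 TPM in stimulated and 33.6, 35.6 and 30.7 TPM in TRAIL libraries. Medium and TRAIL libraries overlapped, and the stimulated libraries stood above both. The log2 difference was 1.52 ± 0.094 with stimulation (adjusted p = 2.13e-06) and -1.36 ± 0.084 with TRAIL (adjusted p = 2.26e-06). Cd226, the activating receptor for the same ligand, moved against Tigit in each comparison. It fell from 44.5 ± 4.64 (SD) to 7.19 ± 0.432 TPM with stimulation (-2.47, adjusted p = 1.69e-07) and was 24.9 ± 1.10 TPM with TRAIL (1.66, adjusted p = 6.97e-07).

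Pdcd1, the gene of PD-1, was lower in stimulated cells. It was at 30.2 and 27.9 TPM in medium, at 13.4, 16.2 and 12.9 TPM in stimulated and at 32.6, 30.7 and 28.8 TPM in TRAIL libraries. The stimulated libraries lay below both other groups, which overlapped. The log2 difference was -0.99 ± 0.110 with stimulation (adjusted p = 6.43e-05) and 1.07 ± 0.098 with TRAIL (adjusted p = 2.22e-05). Per 100 TPM of the CD3 genes Pdcd1 was at 2.37 to 2.54, 1.51 to 1.99 and 2.83 to 3.24 in the same order. The B cell and macrophage marker sums were also lowest in the stimulated libraries, and their part in the level of Pdcd1 was not tested. Across the 8 culture libraries its log2(TPM + 1) ran against that of Cd200 (Pearson r = -0.971), Tigit (-0.966) and Ctla4 (-0.958). These are descriptions over libraries of 3 groups, with no test.

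The PD-1 ligands did not move together. Cd274 was at 96.2 and 96.0 TPM in medium, at 92.0, 119.7 and 114 TPM in stimulated and at 274, 291 and 293 TPM in TRAIL libraries. Stimulated replicate 1 lay below medium and the other stimulated libraries above it, while every TRAIL library stood above all others. With TRAIL the log2 difference was 1.40 ± 0.096 (adjusted p = 4.06e-06). With stimulation it was 0.16 ± 0.107 (adjusted p = 0.195), and without stimulated replicate 1 it was 0.28 (adjusted p = 0.000506). Pdcd1lg2, the next gene downstream, was at 6.47 and 7.43 TPM in medium, at 19.3, 20.3 and 19.2 TPM in stimulated and at 9.11, 9.51 and 8.16 TPM in TRAIL libraries. It rose by 1.38 ± 0.096 with stimulation (adjusted p = 4.33e-06) and differed by -1.06 ± 0.086 with TRAIL (adjusted p = 1.09e-05). The Cd274 transcript was thus highest with TRAIL, while Pdcd1lg2 was highest in stimulated libraries and lowest in medium. B cell markers summed to 1577 to 1617, 262 to 317 and 1366 to 1393 TPM in medium, stimulated and TRAIL libraries. Macrophage and monocyte markers summed to 1251 to 1346, 39.3 to 44.7 and 403 to 490 TPM. The part of these cells in the levels of both ligands was not tested. Over the 8 culture libraries the Pearson correlation of their log2(TPM + 1) was -0.328. The ratio of Cd274 to Pdcd1 TPM was 3.18 and 3.44 in medium, 6.88 to 8.79 in stimulated and 8.41 to 10.2 in TRAIL libraries. Stimulated and TRAIL libraries overlapped in this ratio.

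Cd200, a ligand on lymphocytes for an inhibitory receptor of myeloid cells, was at 42.8 and 39.6 TPM in medium, 176, 156 and 151 TPM in stimulated and 46.6, 40.6 and 42.3 TPM in TRAIL libraries. Medium and TRAIL libraries overlapped. The log2 difference was 1.94 ± 0.092 with stimulation (adjusted p = 5.29e-07) and -1.87 ± 0.082 with TRAIL (adjusted p = 3.61e-07). Its receptor Cd200r1 moved the other way, from 27.3 ± 0.209 to 2.52 ± 0.252 TPM with stimulation (-3.01, adjusted p = 9.04e-08) and to 15.6 ± 0.901 TPM with TRAIL (2.24, adjusted p = 1.81e-07). The related gene Cd200r4 stood at 8.22 ± 0.910, 1.10 ± 0.135 and 7.19 ± 0.561 TPM in medium, stimulated and TRAIL libraries (-2.13 and 1.96, adjusted p = 1.17e-06 and 1.03e-06). The summed macrophage markers moved the same way as these receptors (39.3 to 44.7 TPM in stimulated libraries against 403 to 490 TPM with TRAIL), and their part in this was not tested.

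Btla, Cd160 and Havcr2 were the members not called for TRAIL against stimulated. Btla was at 195 and 178 TPM in medium, 139.9, 149 and 149 TPM in stimulated and 148, 143 and 141 TPM in TRAIL libraries. The first group was above both others, which overlapped. The fall with stimulation of 0.35 on the log2 scale (adjusted p = 0.00129) depended on the scale: with median-of-ratios scaling the difference was 0.04 and on the scale of the CD3 genes 0.14, neither called. The median of all tested genes was -0.32 in that comparison and 0.04 after median-of-ratios scaling, and 0.25 and -0.03 for TRAIL against stimulated. Btla thus fell about as much as the median gene. With TRAIL its difference was -0.02 (adjusted p = 0.816), and under median-of-ratios scaling it was -0.34 and called. B cell markers summed to 1577 to 1617, 262 to 317 and 1366 to 1393 TPM in medium, stimulated and TRAIL libraries. Their part in the level of Btla was not tested.

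Cd160, which shares HVEM with BTLA and is better known from cytotoxic cells, was at 2.07 and 2.095 TPM in medium, 3.804, 4.29 and 3.37 TPM in stimulated and 3.49, 3.99 and 3.56 TPM in TRAIL libraries. It rose by 0.64 ± 0.117 with stimulation (adjusted p = 0.00121) and differed by -0.04 ± 0.105 with TRAIL (adjusted p = 0.732). The CD8 T and NK cell markers summed to 249 to 283, 356 to 410 and 218 to 227 TPM in medium, stimulated and TRAIL libraries. Within that list Cd8a was at 28.7, 42.3 and 42.4 TPM (means in that order), Klrd1 at 120.8, 20.9 and 47.3 TPM and Gzma at 11.02, 192 and 16.7 TPM, and for TRAIL against medium 4 of its 10 genes were higher, 1 lower and 5 not called. Their part in the level of Cd160 was not tested. Its exons overlap those of Pdzk1 on the other strand, which averaged 0.226 TPM, and the strand of counting is not given in the sources used here. Those of Cd274 overlap an antisense gene at 0.343 TPM.

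Havcr2, the gene of TIM-3, was at 3.52 and 3.22 TPM in medium, 4.30, 5.35 and 5.05 TPM in stimulated and 4.08, 3.92 and 4.06 TPM in TRAIL libraries. It rose by 0.43 ± 0.110 with stimulation (adjusted p = 0.00706). With TRAIL the groups did not overlap, but the difference of -0.23 ± 0.098 did not pass (adjusted p = 0.0618). It passed without stimulated replicate 1 (-0.30, adjusted p = 0.0169) and under median-of-ratios scaling (-0.49, adjusted p = 0.00062).

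**Figure D3:**
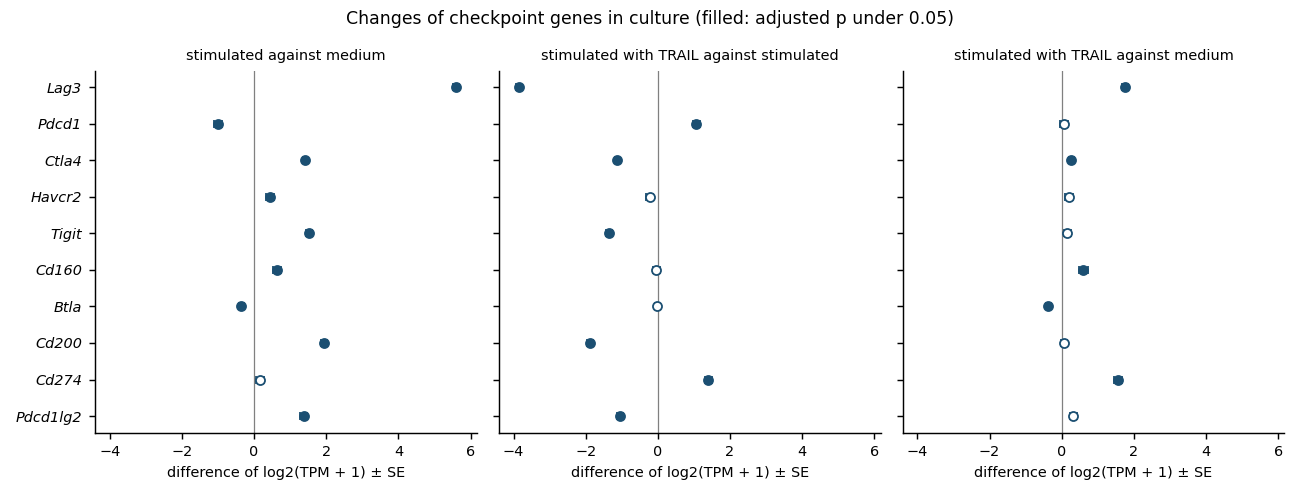
Differences of log2(TPM + 1) with their SE for the 10 genes in the 3 culture comparisons, where filled points have an adjusted p under 0.05. Lag3 lies at 5.61, -3.86 and 1.75, and Cd274 is not called against medium without TRAIL but lies at 1.40 and 1.56 in the comparisons with TRAIL.

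A further comparison asked how far cells given antibodies and TRAIL differed from cells in medium. Lag3 was 3.69-fold higher (1.75 ± 0.082, adjusted p = 8.81e-06) and Cd274 2.98-fold higher (1.56 ± 0.107, adjusted p = 6.54e-05). Cd160 (0.60, adjusted p = 0.0112) and Ctla4 (0.27, adjusted p = 0.0244) were also higher, and Btla was lower (-0.37, adjusted p = 0.00725). Pdcd1 (0.08), Cd200 (0.06), Tigit (0.16), Havcr2 (0.20) and Pdcd1lg2 (0.32, adjusted p = 0.0577) did not pass. The 5 called members stand beside 17.2% of all tested genes (7.25% higher and 9.93% lower). Of those genes 1017 were higher and 1394 lower, against 1300 and 1056 with median-of-ratios scaling and 2062 and 474 on the scale of the CD3 genes. The Ctla4 call was lost when any 1 medium or TRAIL library was left out. Without medium replicate 1, Lag3 and Cd274 were the members still called, and Btla was then at -0.30 (adjusted p = 0.0815). The fall of Btla was -0.15 and not called on the scale of the CD3 genes.

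The order of levels, compared as TPM, differed between the groups. In medium Btla (186 ± 11.9 TPM) led, followed by Ctla4 (141 ± 1.06) and Cd274 (96.1 ± 0.114). In stimulated libraries Lag3 (415 ± 9.10) and Ctla4 (376 ± 22.2) led, followed by Cd200 (161 ± 13.1) and Btla (146 ± 5.03). With TRAIL Cd274 (286 ± 10.5) led, followed by Ctla4 (170.3 ± 3.43) and Btla (144 ± 3.63). Havcr2 and Cd160 were lowest in all 3. Neighbours whose libraries overlapped were Tigit with Pdcd1 and Lag3 with Pdcd1lg2 in medium, and Cd274 with Tigit in stimulated libraries. With TRAIL they were Tigit with Pdcd1, Pdcd1 with Lag3, and Havcr2 with Cd160. The 7 receptors summed to 409 and 388 TPM in medium, 1016 to 1081 TPM in stimulated and 407 to 423 TPM in TRAIL libraries. The 3 ligands summed to 143 and 145 TPM in medium, 284 to 296 TPM in stimulated and 329.9 to 344 TPM in TRAIL libraries. With TRAIL, then, the receptor sum was near that of medium and the ligand sum was not, which comes from Cd274.

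The binding partners of the members were counted as a list. Of 14 partner genes 10 were tested in culture, and Fgl1, Clec4g, Nectin2 and Nectin3 were absent from the table or below the filter. After stimulation 2 were higher, 6 lower and 2 not called (median log2 difference -1.12, against -0.32 over all genes). With TRAIL 7 were higher, 0 lower and 3 did not pass (median 1.38, against 0.25). Of all tested genes 27.5% were higher and 49.0% lower after stimulation, and 48.1% were higher and 28.6% lower with TRAIL. Among them Tnfrsf14, the HVEM gene, was at 237, 118 and 347 TPM (means of medium, stimulated and TRAIL), and Cd80, a ligand of CTLA-4, at 24.05, 9.73 and 27.7 TPM. The B cell and macrophage marker sums moved the same way (262 to 317 TPM of B cell markers in stimulated against 1366 to 1393 TPM in TRAIL libraries), and their part in the change of the partners was not tested. Of the 4 activating counterparts (Cd28, Icos, Cd226 and Tnfsf14), 3 rose and 1 fell with stimulation, and 1 was higher and 3 lower with TRAIL. These counts stand beside the same shares of all tested genes, and the list medians were 0.75 and -1.01. Tnfsf14, which encodes LIGHT and binds HVEM as an activating ligand, was at 5.39 ± 0.364, 19.9 ± 1.49 and 6.56 ± 0.685 TPM (1.71 and -1.47, adjusted p = 2.57e-06 and 3.37e-06).

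Of 11 other inhibitory receptors of lymphocytes, stimulation raised 2, lowered 8 and left 1 short of the threshold (median -1.262), beside 49.0% of all tested genes lowered and an all-gene median of -0.32. With TRAIL 8 were higher and 3 lower (median 1.265), beside 48.1% of all tested genes higher and a median of 0.25. All 10 B cell and 12 macrophage markers were lower and then higher in the same comparisons, and their part in this was not tested. Cd96, a further receptor for the poliovirus receptor, fell from 74.2 ± 1.27 to 9.56 ± 0.921 TPM and was 48.4 ± 3.27 TPM with TRAIL (-2.84 and 2.23, adjusted p = 1.09e-07 and 1.77e-07). Nt5e, which encodes the adenosine-forming enzyme CD73, fell from 38.3 ± 1.25 to 5.10 ± 0.728 TPM and was 37.1 ± 1.38 TPM with TRAIL (-2.69 and 2.65, adjusted p = 2.18e-07 and 1.50e-07). Of the 8 signal transducers, 1 rose, 2 fell and 5 did not pass with stimulation, beside 27.5% of all tested genes higher and 49.0% lower. With TRAIL 2 were higher, 1 was lower and 5 did not pass, beside 48.1% higher and 28.6% lower. The phosphatase gene Ptpn2 rose from 74.7 ± 4.35 to 176 ± 7.42 TPM and was 94.2 ± 2.66 TPM with TRAIL (1.22 and -0.89, adjusted p = 1.14e-06 and 3.58e-06). The adaptor gene Sh2d1a stood at 50.9 ± 0.470, 9.40 ± 2.60 and 32.4 ± 1.37 TPM (-2.35 and 1.71, adjusted p = 6.55e-06 and 2.23e-05).

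Of 15 transcription factors tied to checkpoint genes, 8 were higher, 5 lower and 2 not called after stimulation (median 0.24, against -0.32 over all genes). With TRAIL 5 were higher, 7 lower and 3 not called (median -0.21, against 0.25). Of all tested genes 27.5% were higher and 49.0% lower after stimulation, and 48.1% were higher and 28.6% lower with TRAIL. Irf4, induced in proportion to T cell receptor signal strength, was at 45.4 ± 1.06 TPM in medium, 690 ± 119 TPM in stimulated and 56.1 ± 0.692 TPM in TRAIL libraries (3.88 and -3.58, adjusted p = 1.18e-07 and 1.08e-07). Nr4a3, an early receptor-induced nuclear receptor, was at 18.5 ± 0.746, 171 ± 36.8 and 23.5 ± 0.367 TPM (3.12 and -2.79, adjusted p = 9.14e-07 and 9.34e-07). Of 9 genes of interferon gamma signalling and PD-L1 control, 2 rose and 6 fell with stimulation, beside 27.5% of all tested genes higher and 49.0% lower. With TRAIL 7 were higher and 2 lower (median 0.49), beside 48.1% and 28.6% of all tested genes and a median of 0.25. The 10 B cell and 12 macrophage markers fell with stimulation and were higher with TRAIL here too, and their part was not tested. Ifngr1, a chain of the interferon gamma receptor, was at 913 ± 3.14, 172 ± 10.00 and 1099 ± 31.1 TPM (-2.40 and 2.67, adjusted p = 5.45e-08 and 2.67e-08).

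**Figure D4:**
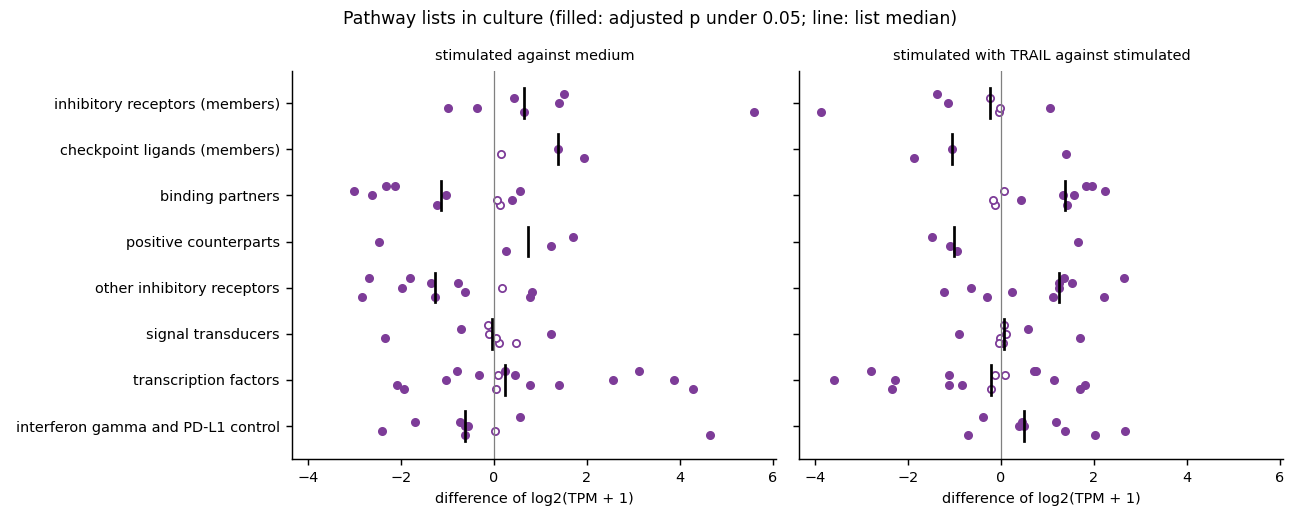
Differences of log2(TPM + 1) of the members and of 6 lists of related genes in the culture comparisons with the stimulated libraries, where each point is 1 gene, filled points have an adjusted p under 0.05 and black lines are list medians. The medians of the binding partners and the other inhibitory receptors lie at -1.12 and -1.262 with stimulation and at 1.38 and 1.265 with TRAIL.

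The genes most like Lag3 and Cd274 were taken as those with the highest Pearson correlation of log2(TPM + 1) over the 8 culture libraries. For Lag3 they were Gzmb (0.9997), Tnfrsf8 (0.9989), Psmc3 (0.9989), Tbkbp1 (0.9988) and Cish (0.9987). Gzmb, which encodes granzyme B, was at 13.3 ± 1.11, 1567 ± 48.2 and 61.9 ± 5.99 TPM in medium, stimulated and TRAIL libraries. For Cd274 they were Mx1 (0.9954), Parp9 (0.9952), Zbp1 (0.9951), Dhx58 (0.9945) and Irf1 (0.9944). Zbp1, a sensor of nucleic acids, was at 202 ± 6.88, 210.4 ± 23.4 and 942 ± 40.8 TPM, and the transcription factor gene Irf1 at 599.7 ± 14.1, 609 ± 45.8 and 1586 ± 14.5 TPM. With 3 separated groups such values mainly reflect the group means, and the genes share libraries and depth.

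In the mice, the comparison of the libraries labelled Lck-Cre with f/f libraries, both given TRAIL, asked what loss of the receptor in T cells changes. Of the 10 members 0 were called, beside 0.0% of the 14176 tested genes by limma, and by limma voom on the recovered reads 0 genes were called as well. At an unadjusted p under 0.05 limma gave 106 genes and 0 members, and voom 160 genes and 0 members. The groups held 2 and 3 libraries spread over lane 2 and lane 4, so a lack of calls does not show that levels were equal. The groups overlapped for all 10 genes. The share over all tested genes was not counted, so this says nothing particular about the members. Btla, the member with the highest level in all 3 mouse groups, was at 287 TPM in the vehicle library, 121, 189 and 154 TPM in f/f TRAIL libraries and 209 and 166 TPM in the libraries labelled Lck-Cre. Its difference for Lck-Cre against f/f was 0.29 ± 0.246, and within lanes it was 0.79 on lane 2 and -0.04 on lane 4.

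Ctla4 was at 41.1 TPM with vehicle, 16.6, 55.3 and 49.6 TPM in f/f TRAIL and 30.8 and 57.1 TPM in Lck-Cre TRAIL libraries. The low values are those of lane 2, which held the vehicle library and the first library of each other group. Cd274 was at 18.1 TPM with vehicle, 21.4, 55.8 and 24.7 TPM in f/f TRAIL and 12.8 and 27.3 TPM in Lck-Cre TRAIL libraries. Its difference for Lck-Cre against f/f was -0.70 ± 0.511, with -0.70 on lane 2 and -0.43 on lane 4, and was not called (adjusted p = 1.0 by limma). Havcr2 was at 10.9 TPM with vehicle, 17.8, 12.02 and 11.9 TPM in f/f TRAIL and 7.11 and 12.2 TPM in Lck-Cre TRAIL libraries. It differed by -1.21 on lane 2 and by 0.03 on lane 4, so its pooled difference of -0.50 ± 0.329 came from the lane 2 libraries. Tigit, at 14.4 TPM with vehicle, was at 7.13, 27.05 and 20.2 TPM in f/f TRAIL and at 17.2 and 17.8 TPM in Lck-Cre TRAIL libraries. Its within-lane differences had opposite signs, 1.16 on lane 2 and -0.38 on lane 4.

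The comparison of f/f mice given TRAIL with the vehicle library asked what TRAIL changed in mice with the receptor. With vehicle there was a lone library, whose spread was taken to equal that of the other mouse groups. Again 0 members were called beside 0.0% of the 14176 tested genes by limma, with 566 genes and 1 member (Btla) at an unadjusted p under 0.05, and voom called 0 genes (959 unadjusted). Lag3 was at 3.81 TPM with vehicle, at 3.84, 15.6 and 13.8 TPM in f/f TRAIL and at 4.73 and 13.4 TPM in Lck-Cre TRAIL libraries. The pooled difference with TRAIL was 1.14 ± 0.852 (adjusted p = 0.972), and on lane 2 alone it was 0.01. Btla had a difference of -0.91 ± 0.311 (adjusted p = 0.972) and of -1.24 on lane 2, where CD4 T cell markers were at 2189 TPM in the vehicle library and 567 TPM in the TRAIL library. Per 100 TPM of the CD3 genes, Btla was at 50.6 in the vehicle library and at 87.2, 60.1 and 35.1 in f/f TRAIL libraries, and the difference was 0.17 on the scale of the CD3 genes. That scale moves the median of all genes in this comparison from 0.07 to 1.05, and that for Lck-Cre against f/f from -0.04 to -0.60, where Btla was at -0.30. Pdcd1 was at 4.49 TPM with vehicle and 3.33 to 9.59 TPM in f/f TRAIL libraries, Cd200 at 21.6 and 10.5 to 24.96 TPM, Cd160 at 6.12 and 2.37 to 6.23 TPM and Pdcd1lg2 at 2.95 and 2.19 to 4.70 TPM.

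**Figure D5:**
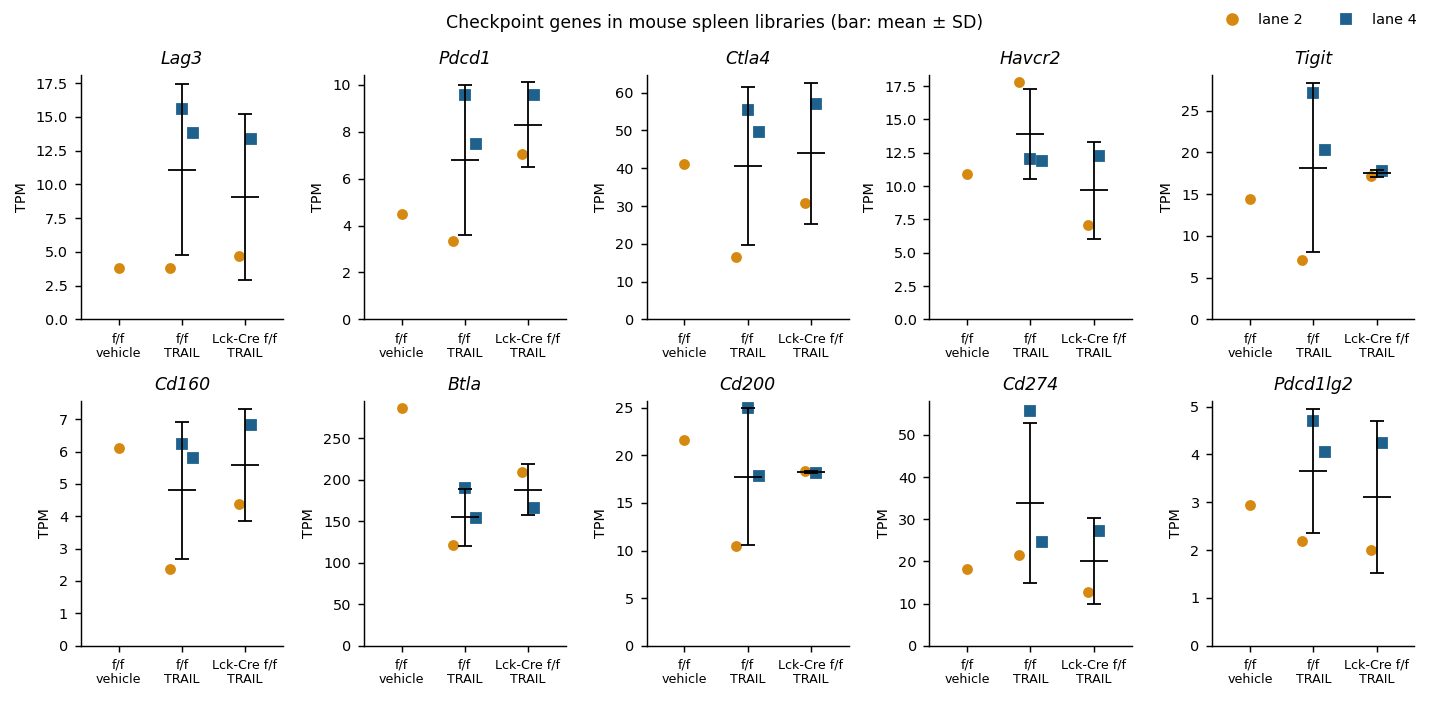
TPM of each of the 10 genes in the 6 mouse libraries by group, with the mean and SD where a group has more than 1 library, and with circles for sequencing lane 2 and squares for lane 4. Lag3 lies at 3.81 to 4.73 TPM in the lane 2 libraries of all 3 groups and at 13.4 to 15.6 TPM in the lane 4 libraries.

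Several members differed between the lanes. With lane as a term beside group, 4 members were called higher on lane 4, beside 27.4% of all tested genes (20.9% higher and 6.53% lower). They were Lag3 (1.54 ± 0.171, adjusted p = 0.02), Ctla4 (1.29 ± 0.195, adjusted p = 0.0211), Pdcd1lg2 (0.77 ± 0.176, adjusted p = 0.0377) and Cd160 (0.84 ± 0.196, adjusted p = 0.0396). Havcr2 (-0.0039 ± 0.308) and Btla (0.14 ± 0.225) had the smallest lane differences. For 6 members (Lag3, Pdcd1, Ctla4, Cd274, Tigit and Pdcd1lg2) every lane 4 library was above every lane 2 library, as for 36.0% of all tested genes. The summed neutrophil markers went the other way (73306 to 97048 TPM on lane 2 and 17749 to 26780 TPM on lane 4), and their part in the lane difference was not tested. Per 100 TPM of the CD3 genes Ctla4 overlapped between lanes (7.26 to 11.99 and 11.1 to 17.6), as did Lag3 (0.674 to 2.77 and 2.61 to 4.94). What the lanes stand for beyond sequencing is not given in the labels.

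The spleen and culture tables were scaled separately, so levels are set beside each other only as an order. Btla led in all 3 mouse groups, at 287 TPM with vehicle, 155 ± 34.3 TPM in f/f TRAIL and 188 ± 30.7 TPM in Lck-Cre TRAIL libraries, as it did in cultured cells in medium. Ctla4 was next in each mouse group, at 41.1, 40.5 ± 20.9 and 43.9 ± 18.6 TPM, and in f/f TRAIL libraries it overlapped Cd274. Lag3 and Pdcd1lg2 were the lowest members in the vehicle library, and Pdcd1lg2 in all 3 mouse groups. B cell markers summed to 1918 TPM with vehicle, 1052 to 2528 in f/f TRAIL and 1378 to 2077 in Lck-Cre TRAIL libraries. CD4 T cell markers summed to 2189, 567 to 1776 and 1301 to 2080 TPM in the same order. The part of B cells in the level of Btla was not tested.

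In the authors' deposited table, 9 members had an adjusted p under 0.05 for stimulated against medium, 10 for TRAIL against stimulated and 5 for TRAIL against medium. Of all genes with an adjusted p in the authors' deposited table, 62.6%, 61.9% and 12.4% were under 0.05 in these comparisons. In the authors' deposited table Lag3 had log2 fold changes of 6.17, -4.23 and 1.95 and Cd274 of 0.55, 1.09 and 1.65 in these comparisons. The authors' deposited table gives Btla a log2 fold change of 0.04 (adjusted p = 0.662) for stimulated against medium, without the fall seen in TPM. For the mice, where the authors' deposited table names no comparison, 0 members were under 0.05, beside 0.0% of all genes, and their adjusted p ranged from 0.658 to 0.973.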

How the data were processed

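RNA of 14 mouse CD4 T cell libraries was sequenced, 8 from culture and 6 from spleens of treated mice; total RNA was extracted with Trizol and libraries were made with the SureSelect XT HS2 mRNA kit, per the labels' protocols. The deposited values are TPM per gene, named so per the file headers in culture; for the mouse table the headers give only library names, and TPM was inferred because each deposited column sums to 1000000. Gene lengths, the authors' log2 fold changes and their p-values stand beside them, per the file headers. Per the submitters' processing notes, the build was GRCm38.p6 and the named tools were DESeq2 1.26.0, StringTie 2.1.4, HISAT2 2.1.0, Trimmomatic 0.36, SAMtools 1.2 and bcl2fastq; the role of each tool, the strand of counting and the filter on genes are not given in the sources used here.

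TPM times length gave whole reads in every library (largest deviation 2.33e-10), and libraries held 19199048 to 56874313 reads. Genes with a mean of at least 1 TPM over an experiment were tested (14035 in culture, 14176 in mice) with limma 3.58.1 in R 4.3.3 on log2(TPM + 1). The variance followed a trend on the mean, all libraries of an experiment were in 1 fit with 1 coefficient per group, tests were two-sided, p-values were adjusted by Benjamini-Hochberg over all tested genes, and the threshold was 0.05. The fits were tested on simulated data. No sample was dropped or imputed.

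The members and the gene lists were chosen with earlier results of these data known. All members are named. Of each list, the 2 called genes with the largest change between TRAIL and stimulated libraries are named, except 1 that is not reported here, and further list genes (Cd28, Icos, Cd80, Tnfrsf14) and examples were named after their values were seen. Alternatives were other pseudocounts, no filter, median-of-ratios scaling, only the groups compared, each library left out, limma voom on recovered reads, a replicate block and, in mice, the lane. Scaling to the sum of Cd3d, Cd3e and Cd3g was chosen after seeing the data. Gene set tables of the mouse experiment were not used here.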

Additional observations from a re-analysis of the deposited data

How the results depend on the processing

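Limits first: groups hold 1 to 3 libraries, mouse lanes hold 3 libraries each, and depth limits Cd160 and Pdcd1lg2 most, at 57 reads in the lowest library of each. For stimulated against medium 9 members were called, 8 to 10 with 1 library left out and 9 under each other setting. Beside them 10741 of all genes were called, 9290 to 11447 with 1 library left out and 9933 to 13013 under other settings. Btla reversed there, at 0.042 with median-of-ratios scaling and 0.14 on the scale of the CD3 genes, and was not called by voom (-0.15, adjusted p = 0.064); the cause was not tested. Cd274 was called with median-of-ratios scaling (0.56), voom (0.37), the CD3 scale (0.65) and without stimulated replicate 1 (0.28), and Havcr2 was lost without medium replicate 2 (adjusted p = 0.0503). For TRAIL against stimulated 7 members were called, 7 or 8 with 1 library left out and 7 to 10 under other settings. Of all genes 10765 were called, 10009 to 11385 with 1 library left out and 10178 to 12728 under other settings. Havcr2 and Btla passed with median-of-ratios scaling, voom and the CD3 scale (Btla -0.34, -0.21 and -0.29), and Cd160 with median-of-ratios scaling only (-0.30). For TRAIL against medium 5 members were called, 2 to 6 with 1 library left out (2 without medium replicate 1 and 3 without medium replicate 2) and 4 to 6 under other settings. All genes called there went from 2411 to between 902 and 5441 with 1 library left out (902 without medium replicate 1, 1094 without medium replicate 2, 5441 without stimulated replicate 1, and 1433, 1534 and 1495 without TRAIL replicates 1, 2 and 3), to 5141 with only the groups compared and to 1356 with the replicate block. Tigit (0.37) and Pdcd1lg2 (0.51) were called there on the CD3 scale. In mice 0 members were called under all settings run, and the CD3 scale gave 12 genes, all higher, for f/f TRAIL against vehicle.

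Same-numbered culture libraries did not deviate together (correlations of -0.134 to 0.078). Numbers here and in the replicate block were taken from the titles, and the bracketed name of medium replicate 2 carries a different number. With so few libraries per group, these correlations cannot decide whether the culture libraries were paired. With the replicate block 9, 7 and 4 members were called in the culture comparisons, Ctla4 being lost for TRAIL against medium (0.24, adjusted p = 0.0894), and 0 in mice, where same-numbered libraries correlated by 0.696 and 0.22 over 2 pairs. The libraries of each mouse pair were also on the same lane, so number and lane cannot be told apart there. Of all genes 10289, 10431 and 1356 were called with the block in the culture comparisons. The vehicle library has no number, so no paired analysis was possible for it. In culture, of 480 values of members under the alternatives, 449 counted as unchanged, 17 passed the threshold newly, 12 no longer passed and 2 reversed. A value called in neither fit counted as unchanged even where its sign differed.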
